A study of Mus musculus with 45 samples.

Results

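The comparison concerned dEx1A splenic B2 cells, from C57BL/6 mice that carried a deletion of exon 1A of Prdm1, after 4 and 7 days in the BCR culture. Its members were the 3 libraries of day 4 and the 3 libraries of day 7 that the sample titles name, 6 of the 45 RNA-seq libraries in the series, and every gene of the deposited table. Both groups came from females labelled 9 weeks old, and the labels call the cells of both days plasmablasts. The cells had been purified to above 95% and seeded on irradiated mouse L cells (a fibroblast line) that expressed CD40L. Their receptors were cross-linked with 12 µg/mL of an anti-IgM/IgG F(ab')2 reagent, and the cytokines IL-5 and IL-4 were added, each to 50 ng/mL. They were lifted off the feeders at day 2. At day 4 they were reseeded in medium enriched in lipids and amino acids that held the survival factor APRIL (100 ng/mL) and IL-6 (10 ng/mL), so that culture age and the change of medium go together. The groups set beside them were wild type BCR cells from males labelled 7 weeks old, dEx1A TLR cells (LPS at 5 µg/mL in place of the antibody fragments) and dEx1A LPS cells, both from females labelled 9 weeks old, each with 3 libraries at day 4 and 3 at day 7. Genotype therefore goes with sex and age, although the protocol calls the mice matched. The makeup of the LPS culture is not given in the sources used here, nor is whether replicates came from separate animals. The p-values therefore measure the spread between libraries of the same group, which may be technical.

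Prdm1 encodes Blimp-1, the transcriptional repressor that shuts down the B cell programme and is needed for full antibody secretion. Exon 1A is one of the alternative first exons of the gene, so its loss removes one way of starting the transcript and not the coding part. As B cells turn into plasmablasts they switch on the factors IRF4 and XBP1, make secreted immunoglobulin in bulk, enlarge the endoplasmic reticulum (ER) that folds it, and lose surface receptors and factors such as PAX5 and BACH2 that keep a B cell responsive to antigen.

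All values are log2 expression after a variance-stabilising transformation, on which a count of 0 reads 3.04 and differences of genes with few reads are understated. A difference is the day 7 mean less the day 4 mean, given with its standard error and the Benjamini-Hochberg adjusted p of limma, and "rose" or "fell" means an adjusted p below 0.05. The standard error and p rest on a spread shared over all 39 libraries of 13 groups, not on these 6 libraries alone. For genes with uneven replicates they can be smaller than these 6 libraries alone would give. Of 20331 genes tested, 5330 (26.2%) rose and 5633 (27.7%) fell, 53.9% in all, with a median difference of -0.04. Among these, 886 rose by 2 or more and 166 fell by 2 or more. The 3 day 7 libraries lay wholly above or below the 3 day 4 libraries for 11322 genes (55.7%). Counts of gene groups given below are to be read beside the 26.2% and 27.7% of all genes that rose and fell.

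The days also differed in depth and in how strongly GC-rich genes were read. Recovered totals were 23.24 to 28.89 M reads at day 4 and 17.11 to 19.59 M at day 7. The GC offset of a library, how far its GC-rich genes (top 25%) stood above their average over libraries, less the same for its GC-poor genes (bottom 25%), was -1.12 to -0.34 at day 4 and 0.66 to 1.57 at day 7. Over 7406 well-expressed protein-coding genes the GC-poor 25% had a median difference of -0.86 and the GC-rich 25% one of 0.99. Day 4 replicate 2 and day 7 replicate 1 had the highest offsets of their groups. Culture day and this trend cannot be told apart by design, so results as deposited are set beside those after each library was corrected for a smooth trend on GC content and length ("corrected") and, chosen after seeing the data, with the offset as a covariate ("covariate"). Counts of gene groups over the days are given in all 3 fits, and those of genes chosen by a promoter motif as deposited and after correction. Single genes carry a value from 1 or both of the other fits only where it bears on the call or its size. The corrected fit called 19.6% of genes higher and 30.8% lower, and the covariate fit called 11.9% higher and 15.9% lower. Of the 10963 genes called as deposited, 53.4% were called in the same direction after correction and 37.0% with the covariate, while 620 and 263 were called in the opposite direction. A fit of only these 6 libraries called 4176 genes higher and 3968 lower. It called 72.5% of the 10963 in the same direction and none in the opposite one. Leaving out 1 of the 6 libraries gave 9025 to 10901 calls. Smaller list counts in those fits are to be read beside these totals. The wild type BCR libraries differed by 0.41 in mean GC offset between the days, against 1.86 here, 2.50 in the dEx1A TLR and 0.91 in the dEx1A LPS libraries.

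**Figure D1:**
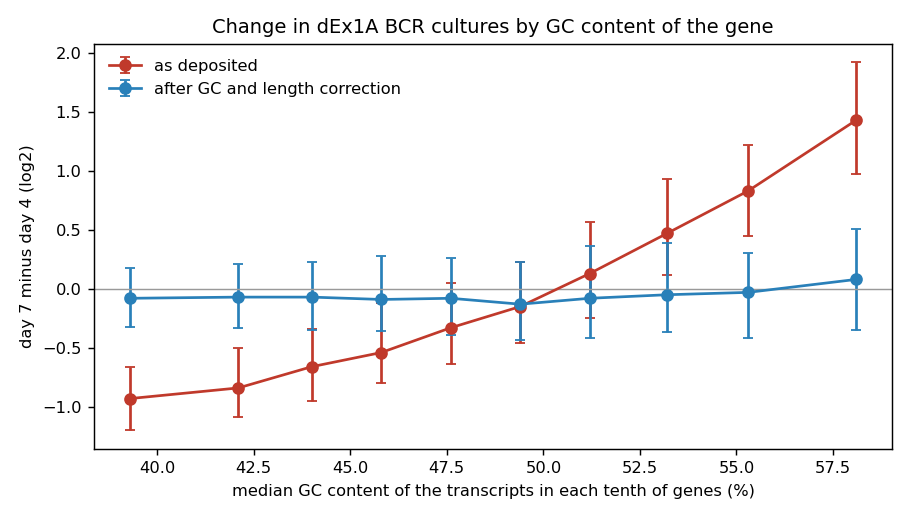
Median day 7 minus day 4 difference (log2) of 7406 protein-coding genes in 10 equal bins of GC content (percent), as deposited and after correction for GC content and length; error bars span the middle 50% of genes. As deposited the medians climb from -0.93 at 39.3% GC to 1.43 at 58.1% GC, and after correction they run from -0.08 to 0.08 at those ends.

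Prdm1 itself rose between the days. The gene lies on the minus strand at chr10:44437177-44528501 (GRCm38), and the values cover the whole gene, so that transcripts from exon 1A could not be separated. At day 4 the libraries read 8.45, 7.27 and 8.82, and at day 7 they read 10.02, 10.10 and 10.80. The lowest day 7 library lay above the highest day 4 library, the gap between the means was 2.13 ± 0.28 (SE, n = 3 a day, limma adjusted p = 4.64e-07), and the call held in 18 of 18 alternatives. The corrected difference was 2.59. In wild type BCR cells Prdm1 went from a mean of 9.74 to 12.46, so dEx1A cells at day 7 lay below wild type cells at day 7 and within or above the 9.32 to 10.23 of wild type cells at day 4. The difference between those changes was -0.59 ± 0.40 (adjusted p = 0.261), and without day 4 replicate 2 it was -1.04 (adjusted p = 0.0207).

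Among 12 plasma cell transcription factors, 5 rose and 3 fell as deposited (median difference 0.17), and 7 rose and none fell after correction (median 0.49), against 6 and none with the covariate. Leaving out day 4 replicate 1, day 4 replicate 3 or day 7 replicate 1 left 1 of the falls, and with only these 6 libraries in the fit none was left. Creb3l2, an ER-resident factor of the secretory programme, read 7.94, 7.30 and 8.03 at day 4 and 9.64, 9.51 and 10.57 at day 7, a rise of 2.15 ± 0.23 (adjusted p = 8.62e-09). Xbp1, the factor that expands the ER, read 13.15, 12.44 and 13.03 and then 14.12, 14.08 and 14.20. Its libraries did not overlap, and its rise of 1.26 ± 0.17 (adjusted p = 7.04e-07) was 0.73 after correction. Mef2b, a germinal centre factor placed on the list, rose by 3.49 ± 0.52 as deposited, by 1.45 after correction and by 1.25 with the covariate. Irf4, the factor that starts plasmablast formation, was already at 12.80 to 13.15 at day 4 and read 12.95 to 13.56 at day 7. Its difference of 0.20 ± 0.18 did not pass (adjusted p = 0.356), while the corrected one of 0.49 did (adjusted p = 0.00989).

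The factors of B cell identity did not move as 1 group. Of 18 on the list 7 rose and 6 fell as deposited, against 4 and 11 after correction and 2 and 7 with the covariate. Bach2, a repressor that holds back plasma cell formation, read 10.06, 10.07 and 9.93 at day 4 and 7.67, 7.65 and 7.73 at day 7. These are tight, separate groups, and the fall of -2.34 ± 0.16 (adjusted p = 2.27e-12) held in 18 of 18 alternatives. Pax5, the factor that fixes B cell identity, fell by 0.82 from 12.84, 12.71 and 12.86 to 11.65, 12.35 and 11.95 (adjusted p = 0.00197), but with the covariate its difference was -0.48 (adjusted p = 0.173). Ebf1, its partner in early B cells, fell by 1.06 as deposited, by 0.28 after correction and by 0.55 with the covariate. Bcl6, a repressor that maintains the germinal centre state, had a difference of -0.36 ± 0.16 that did not pass (adjusted p = 0.0549), and it passed in 9 of 18 alternatives with values down to -0.73. Spi1, which encodes PU.1, rose by 3.00 ± 0.36 and Tcf3, which encodes E2A, by 2.43 ± 0.39. Those rises were 1.51 and 0.63 after correction.

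Immunoglobulin genes rose as a group. Of 13 constant-region and J chain genes 12 rose and 1 fell, with median differences of 3.00 as deposited, 2.42 after correction and 2.28 with the covariate, and the same counts in all 3 fits. Summed over this list, the libraries held 7900, 7890 and 7240 RPM (reads scaled to library size) at day 4 and 78300, 34900 and 73400 at day 7. In these bulk samples more secreting cells and more RNA per cell cannot be told apart. Igha, the constant region of IgA, at chr12:113254830-113260236 on the minus strand, read 6.28, 6.17 and 6.85 and then 14.40, 13.78 and 14.06. Its rise of 7.65 ± 0.64 (adjusted p = 1e-10) was 6.23 with the covariate. Jchain, the joining chain that links IgA dimers and IgM pentamers, read 10.05, 8.95 and 10.36 and then 15.38, 14.39 and 15.80, a rise of 5.40 ± 0.41 (adjusted p = 1.94e-11). Day 7 replicate 2 was the lowest of its group for both genes, yet it stood far above every day 4 library.

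Every other heavy chain class named here rose as well, apart from IgD. Ighg2b went from 5.98, 5.24 and 5.44 to 11.85, 8.46 and 11.29, a rise of 4.98 ± 0.48 (adjusted p = 1.51e-09). Ighg3 rose by 3.44 ± 0.39, Ighm by 2.87 ± 0.30, Ighe by 2.65 ± 0.29 and Ighg1 by 2.33 ± 0.46, and the kappa light chain gene Igkc rose by 3.52 ± 0.34 (adjusted p = 1.5e-09). Ighd, the class carried on the surface of naive cells, fell from 11.16, 10.55 and 10.75 to 9.62, 8.84 and 8.92 (-1.69 ± 0.35, adjusted p = 0.000221). The variable segments followed the constant regions: 85 of 110 heavy chain segments and 81 of 103 light chain segments rose and none fell, with medians of 2.08 and 2.16. Single heavy chain segments ran from -0.23 to 4.24 and light chain segments from -0.15 to 3.64. After correction 72 and 71 of them rose and 1 heavy chain segment fell, and with the covariate 70 of each rose and none fell. Near-identical segments share reads, so the counts are firmer than any one segment.

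**Figure D2:**
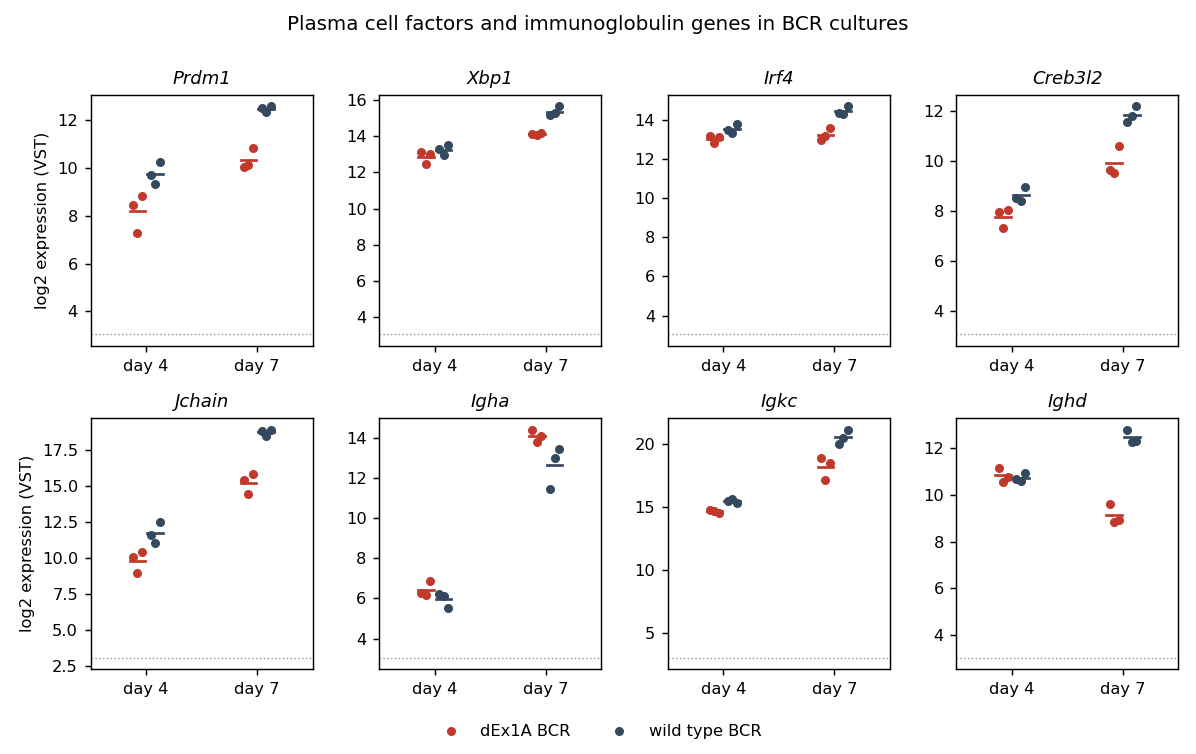
Log2 expression (VST) of plasma cell factors and immunoglobulin genes in dEx1A and wild type BCR cultures at day 4 and day 7; points are libraries, bars are means of 3 and the dotted line is the value of a count of 0. In dEx1A cells Igha climbs from 6.17 to 6.85 at day 4 to 13.78 to 14.40 at day 7 and Ighd drops, while Irf4 overlaps between the days.

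Of 25 plasma cell markers 18 rose and 3 fell (median 1.10), and 16 rose and 5 fell after correction and 14 and 3 with the covariate. Sdc1, the surface proteoglycan syndecan-1 (CD138) by which plasma cells are sorted, read 6.57, 6.89 and 7.00 at day 4 and 9.54, 8.67 and 9.67 at day 7. Its groups did not overlap, with a rise of 2.47 ± 0.29 (adjusted p = 6.91e-08) that was 1.60 after correction. Tnfrsf17, the APRIL receptor BCMA, went from 4.34, 3.58 and 3.79 to 8.36, 6.17 and 7.99 (3.60 ± 0.38, adjusted p = 1.05e-08), and on recovered reads, where low counts are not compressed, its rise was 5.74. Mzb1, a chaperone of immunoglobulin assembly, rose by 2.77 ± 0.30 from 11.49, 11.45 and 11.44 to 14.43, 13.86 and 14.41, and by 1.73 after correction. Ly6c2 rose by 3.63 ± 0.47, and by 5.92 on recovered reads. Derl3, which carries misfolded protein out of the ER, rose by 3.32 ± 0.41 (1.94 after correction), and Fkbp11, an ER folding enzyme of secretory cells, by 3.16 ± 0.38 (1.86 with the covariate).

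Mature B cell identity genes split. Of 27, 8 rose and 7 fell, near the 26.2% and 27.7% of all genes. After correction 9 rose and 9 fell, and with the covariate 6 and 7. Fcer2a, the low-affinity IgE receptor CD23, read 12.92, 13.31 and 12.67 at day 4 and 11.25, 10.64 and 10.48 at day 7. All day 7 libraries were lower, and the fall of -2.18 ± 0.18 (adjusted p = 1.37e-10) was -2.49 after correction. Other members went the other way: Ly6d, a surface marker of the B lineage, rose by 3.70 ± 0.53 (1.48 with the covariate), and Vpreb3, which binds immunoglobulin chains inside the cell, rose by 2.18 ± 0.27 (1.31 after correction). Of 12 MHC class II presentation genes 6 rose and 1 fell as deposited, but 2 rose and 4 fell after correction and 2 rose and 8 fell with the covariate. Leaving out day 7 replicate 1 also left 2 rises, and leaving out day 4 replicate 3, or fitting only these 6 libraries, left 3. Cd74, the invariant chain, had a difference of 1.46 ± 0.44 as deposited, 0.22 after correction and -0.50 with the covariate (adjusted p = 0.00659). H2-Ob, a chain of the peptide-loading inhibitor, fell by 1.34 ± 0.17 and kept that call in all 18 alternatives.

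Genes of protein folding and export in the ER were read as 2 lists. Of 28 ER chaperone and degradation genes 17 rose and 2 fell (median 0.56), and 21 rose and 1 fell after correction, 15 of the 17 rises among them, while 17 rose and 1 fell with the covariate. Edem2, a mannosidase that marks misfolded glycoproteins, rose by 2.28 ± 0.27 from 9.12, 9.17 and 8.98 to 11.93, 10.61 and 11.57 (adjusted p = 1.02e-07, 1.32 with the covariate). Os9, a lectin of the same disposal route, rose by 2.10 ± 0.32 and by 0.98 after correction. Of 40 ER translocation and vesicle export genes 16 rose and 6 fell (median 0.12), and 23 rose and 2 fell after correction (median 0.43) and 16 and 1 with the covariate. Sec24d, a cargo-binding coat protein of vesicles leaving the ER, read 7.92, 7.51 and 8.19 and then 9.25, 9.65 and 10.58, a rise of 1.95 ± 0.22 (adjusted p = 2.8e-08) that stayed within 1.5 times in the alternatives. Ssr2, a subunit of the translocon-associated complex, rose by 1.72 ± 0.28 and by 0.54 after correction.

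Many folding genes carry an ER stress element, CCAAT and CCACG with 9 bases between them, to which XBP1 and ATF6 bind as background. The letters were searched on both strands of RefSeq promoters (GRCm38.p6, 250 bases before to 50 after the gene start). They stood in 37 of 27025 genes (0.137%), in 9 of 25 matched genes of the chaperone and degradation list (36.0%) and in 0 of 30 of the export list. A match describes these windows and is not a site. The promoters of 3 of the 9 genes are shown because the genes differed in their change from day 4 to day 7. Each is on the plus strand, 5′ to 3′, with the matched element in capitals, at chr2:34771840-34772139 for Hspa5, chr15:88819396-88819695 for Creld2 (its element reads on the opposite strand) and chr19:6046326-6046625 for Syvn1.
Hspa5: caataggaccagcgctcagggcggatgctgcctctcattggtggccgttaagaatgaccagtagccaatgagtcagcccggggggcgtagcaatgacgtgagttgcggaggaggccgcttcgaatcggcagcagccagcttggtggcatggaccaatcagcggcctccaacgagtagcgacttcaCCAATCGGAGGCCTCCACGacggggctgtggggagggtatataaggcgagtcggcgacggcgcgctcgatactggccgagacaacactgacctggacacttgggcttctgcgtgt
Creld2: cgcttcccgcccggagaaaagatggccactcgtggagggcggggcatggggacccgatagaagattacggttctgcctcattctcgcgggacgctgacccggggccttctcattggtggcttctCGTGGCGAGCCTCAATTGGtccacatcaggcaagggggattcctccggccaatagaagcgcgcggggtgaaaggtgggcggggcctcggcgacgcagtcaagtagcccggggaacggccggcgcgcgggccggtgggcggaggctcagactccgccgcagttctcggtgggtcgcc
Syvn1: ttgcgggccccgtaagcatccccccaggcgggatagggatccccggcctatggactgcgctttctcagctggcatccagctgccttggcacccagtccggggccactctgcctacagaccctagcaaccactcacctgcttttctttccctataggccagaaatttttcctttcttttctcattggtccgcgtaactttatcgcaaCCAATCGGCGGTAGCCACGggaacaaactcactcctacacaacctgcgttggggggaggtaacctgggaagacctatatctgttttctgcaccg

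The 9 genes with that element did not change alike: 6 rose, 1 fell and the other two did not pass, and 8 rose and 1 fell after correction. Hspa5, the main ER chaperone BiP, read 14.95, 14.64 and 14.93 at day 4 and 15.02, 14.58 and 15.05 at day 7. These groups overlapped, with a difference of 0.04 ± 0.19 (adjusted p = 0.873), against 0.45 after correction (adjusted p = 0.0195) and 0.59 with the covariate (adjusted p = 0.0214). Creld2, a secreted-protein chaperone, read 10.03, 10.09 and 9.84 and then 12.51, 11.35 and 12.15, a rise of 2.02 ± 0.27 (adjusted p = 4.9e-07) that was 1.06 in both of the other fits. Syvn1, the ubiquitin ligase of ER degradation, rose by 1.71 ± 0.37 as deposited (adjusted p = 0.000335) and by 0.65 after correction, and its difference was 0.11 with the covariate (adjusted p = 0.684). Pdia6, a disulphide isomerase, rose by 1.04 ± 0.16 (0.65 with the covariate). Hsp90b1, the chaperone GRP94, rose by 0.74 ± 0.25 (adjusted p = 0.0138) and by 1.40 after correction. Its call was lost without day 4 replicate 2 (0.56), day 7 replicate 1 (0.62) or day 7 replicate 3 (0.65), and in a fit of only these 6 libraries. Dnajc3, a co-chaperone of BiP, rose by 0.41 ± 0.17 (adjusted p = 0.0367, 1.14 after correction), a call lost in 7 of 18 alternatives, among them those without day 4 replicate 1 or 2 or day 7 replicate 1 or 3 (0.26 to 0.45). Calr, the lectin chaperone calreticulin, rose by 0.41 ± 0.14 (adjusted p = 0.0149), a call lost with the covariate (0.13), without day 7 replicate 1 (0.28) and in the 6-library fit. Canx, its membrane-bound relative calnexin, fell by 1.11 ± 0.17 (0.39 after correction). Ero1lb, an oxidase that reloads the isomerases, had a difference of 0.11 ± 0.20 (adjusted p = 0.66), against 0.70 after correction (adjusted p = 0.000344).

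Of 13 UPR sensors and factors (the unfolded protein response) 8 rose and 2 fell, and 7 rose and 3 fell after correction and 5 and 2 with the covariate, with 5 rises in a fit of only these 6 libraries. Atf6b, a membrane-bound relative of ATF6, rose by 1.91 ± 0.35 as deposited but had a difference of 0.21 after correction (adjusted p = 0.19). The targets of ATF4 and CHOP, the amino acid and stress branch, had 9 rises and 11 falls among 26, 3 rises and 14 falls after correction, and 1 and 11 with the covariate, with 5 falls in the 6-library fit. Stc2, a secreted glycoprotein of that list, fell from 7.37, 8.27 and 7.52 to 5.29, 6.15 and 5.01 (-2.24 ± 0.31, adjusted p = 1.33e-06), and Pycr1, a proline synthesis enzyme, rose by 1.45 ± 0.25 (0.80 after correction). The core of the amino acid response element, TGATGCAA on either strand, stood in 6 of 23 promoters of this list (26.1%) and in 1.03% of all promoters. Of those 6 genes 1 rose and 2 fell, and 1 rose and 3 fell after correction, against 26.2% and 27.7% of all genes as deposited. Among 20 cytosolic tRNA synthetases 4 rose and 8 fell, 2 rose and 11 fell after correction, and 1 and 18 with the covariate. Eprs, which charges glutamate and proline tRNA, fell by 1.30 ± 0.11 (0.60 after correction), and Wars, which charges tryptophan tRNA, rose by 1.21 ± 0.22 (0.33 with the covariate). The tRNA synthetase list had 1 rise without day 7 replicate 1 and 2 rises without day 4 replicate 1 or 3. N-glycan genes gave 13 rises and 14 falls of 36, 13 and 7 after correction, and 1 and 6 with the covariate, with 8 falls without day 7 replicate 1 and 7 in the 6-library fit. Mgat1, which opens the way to complex glycans, rose by 2.34 ± 0.29 (1.18 after correction), and Dad1, a subunit of the oligosaccharyl transferase, rose by 1.68 ± 0.44 as deposited but had a difference of -0.29 with the covariate.

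Sterol and fatty acid synthesis fell in every fit shown. Of 34 genes 21 fell and 7 rose as deposited (median -0.91), 26 fell and 3 rose after correction (median -1.15), and 29 fell and none rose with the covariate. Summed over the list, libraries held 7350, 6330 and 6570 RPM at day 4 and 2330, 3370 and 2860 at day 7. Hmgcs1, which makes the HMG-CoA that feeds the mevalonate pathway, read 12.81, 12.40 and 12.53 and then 9.89, 10.48 and 10.15, a fall of -2.41 ± 0.17 (adjusted p = 4.26e-12). Its highest day 7 library lay far below its lowest day 4 library. Cyp51, the lanosterol demethylase, fell by 2.37 ± 0.17. Msmo1, the methylsterol oxidase, fell by 2.29 ± 0.19, and Idi1, the isopentenyl diphosphate isomerase, fell by 2.30 ± 0.23 (-1.45 with the covariate). All 4 calls held in 18 of 18 alternatives. Lipids were added to the medium at day 4, so that lipid supply and culture day cannot be told apart. The rises were less steady: 3, 2 and 3 of them were left without day 4 replicate 1, day 4 replicate 3 or day 7 replicate 1. The letters TCACCCCAC, a sterol regulatory element core searched on both strands and chosen after seeing the data, stood in 1 of 23 promoters of the list, that of Hmgcs1, and in 0.614% of all.

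Counts for genes of energy metabolism differed between the fits as deposited, after correction and with the covariate. Of 47 nuclear-encoded oxidative phosphorylation genes 26 rose and 3 fell as deposited, but 17 rose and 15 fell after correction, and 6 rose and 7 fell with the covariate. Without day 7 replicate 1, 10 rose and 6 fell, while 17 rose without day 4 replicate 3 and 15 in the 6-library fit. Ndufs7, a complex I subunit, rose by 3.07 ± 0.55 as deposited, 1.17 after correction and 0.60 with the covariate. Atp5d, a subunit of the ATP synthase, rose by 3.01 ± 0.72 as deposited and had a difference of -0.26 with the covariate (adjusted p = 0.252). Of 24 glycolysis and hypoxia genes 13 rose and 5 fell, against 4 and 7 after correction and 2 and 7 with the covariate, and 3 fell without day 4 replicate 1 or in the 6-library fit. Vegfa, the vascular growth factor induced by low oxygen, was an exception in its steadiness, at 6.50, 6.52 and 6.57 on day 4 and 9.24, 8.67 and 9.77 on day 7 (2.70 ± 0.31, adjusted p = 4.16e-08, 2.52 after correction). Slc16a1, a lactate transporter, fell by 1.73 ± 0.17 (1.05 after correction). Of 13 mitochondrially encoded genes 9 fell and none rose as deposited and after correction, and none passed with the covariate. The list held 67900, 55600 and 70700 RPM at day 4 and 13800, 37000 and 34100 at day 7, so day 7 replicate 1 was the lowest. mt-Nd2 fell by 1.67 ± 0.37 (adjusted p = 0.000439), by 1.07 without day 7 replicate 1, and its difference was -0.25 with the covariate (adjusted p = 0.541). mt-Atp8 fell by 1.91 ± 0.56, and its difference was -0.82 without that library (adjusted p = 0.144) and -0.20 with the covariate.

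Of 30 mitosis and spindle genes 19 fell and 4 rose (median -0.57), and 11 fell and 1 rose after correction, of which 7 were among the 19. With the covariate 8 fell and none rose, and as deposited 2 rises were left without day 4 replicate 1 or 3. Ect2, the exchange factor that positions the cleavage furrow, fell by 1.24 ± 0.21 from 10.66, 10.40 and 10.77 to 8.59, 9.73 and 9.78 (0.45 after correction). Kif11, the motor that separates spindle poles, fell by 1.21 ± 0.22 as deposited and by 0.45 after correction, and its difference was -0.30 with the covariate (adjusted p = 0.0782). Mki67, the proliferation marker Ki-67, read 14.47, 14.20 and 14.63 and then 13.59, 13.99 and 14.05. Its fall of -0.56 ± 0.21 (adjusted p = 0.0271) was 0.06 after correction, and the call was lost without day 4 replicate 1 (-0.54), day 4 replicate 3 (-0.46) or day 7 replicate 1 (-0.41), and in the 6-library fit. The letters TTTGAA of the cell-cycle homology region, on either strand, stood in 18 of 25 mitosis promoters (72.0%) and in 20.2% of all promoters. Of those 18 genes 11 fell and 3 rose, and 6 fell and none rose after correction. Of all genes 27.7% fell and 26.2% rose as deposited, and 30.8% fell and 19.6% rose after correction.

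Of 34 genes of DNA replication and nucleotide synthesis 18 fell and 7 rose, 17 fell and 3 rose after correction, and 13 fell and 1 rose with the covariate. Ccne2, cyclin E2 of the entry into replication, fell by 1.71 ± 0.27 (0.89 after correction). Pold1, the catalytic subunit of polymerase delta, rose by 2.11 ± 0.52 as deposited, and its difference was 0.33 after correction and -0.17 with the covariate. The E2F forms TTTCCCGC and TTTGGCGC, searched on both strands and unable to cover the same 8 bases, each stood in 6 of 27 promoters of the list (22.2%), against 1.24% and 0.585% of all. Of the 6 genes with the first form 1 rose and 3 fell, and 0 rose and 3 fell after correction. Of the 6 with the second form 2 rose and 2 fell, and 1 rose and 2 fell after correction. Of all genes 26.2% rose and 27.7% fell as deposited, and 19.6% rose and 30.8% fell after correction. Of 15 D cyclins and CDK inhibitors 6 rose and 2 fell, 8 and 3 after correction, and 8 and 1 with the covariate. Cdkn2a, which encodes the inhibitors p16 and p19ARF, rose from 5.33, 6.10 and 5.66 to 10.11, 8.38 and 9.28 (3.56 ± 0.45, adjusted p = 2.1e-07, 1.51 after correction), and Ccnd3, cyclin D3, by 2.56 ± 0.32 (1.20 with the covariate). Of 30 MYC and ribosome biogenesis genes 16 fell and 6 rose, 17 and 3 after correction, and 25 and 1 with the covariate, with 3 rises left without day 7 replicate 1. Pno1, a ribosome assembly factor, fell by 1.72 ± 0.17 (1.07 with the covariate), and Ppan, another, rose by 1.71 ± 0.40 as deposited with -0.09 in the covariate fit. The 23 replication-dependent histones tested of 24 had 5 rises and no fall as deposited 3 rises and 15 falls after correction, and 2 rises and no fall with the covariate. Without day 7 replicate 3 there were 8 rises, and without day 4 replicate 2, day 4 replicate 3 or day 7 replicate 1 there were 3. Many of them sat near the floor, where the correction also shifts a count of 0. Hist1h1c, a linker histone that is also made outside replication, rose by 2.49 ± 0.29 (1.54 after correction). Hist1h2bj, at 3.04 to 3.70 on day 4 and 3.90 to 4.94 on day 7, had a difference of 1.09 as deposited and -1.22 after correction.

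**Figure D3:**
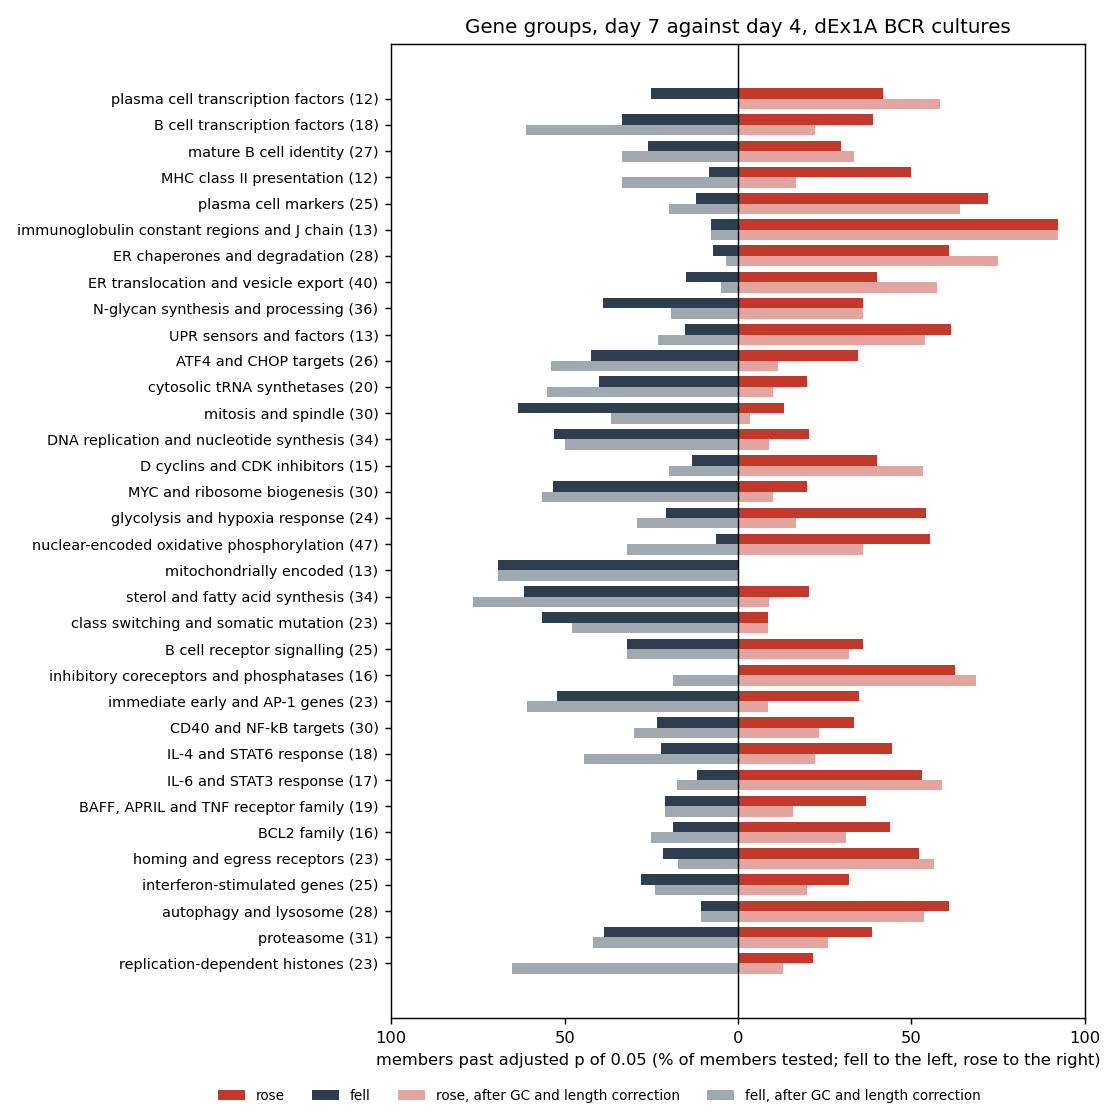
Share of tested members of each gene group (percent, number of members in brackets) that rose, to the right, or fell, to the left, as deposited and after correction for GC content and length, at an adjusted p below 0.05. Among immunoglobulin constant regions and J chain 12 of 13 rose in both fits, in the sterol and fatty acid group 21 of 34 fell as deposited and 26 after correction, and nuclear-encoded oxidative phosphorylation changed from 26 rises to 17.

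The immediate early genes are switched on within minutes by antigen receptor engagement and by many other stimuli. Of 23 immediate early and AP-1 genes 12 fell and 8 rose (median -0.80), 14 fell and 2 rose after correction, and 10 fell and 3 rose with the covariate. Egr3, a zinc finger factor of that response, read 10.83, 10.87 and 10.93 at day 4 and 8.0, 8.22 and 8.29 at day 7. Its fall of -2.71 ± 0.20 (adjusted p = 7.17e-12) held in 18 of 18 alternatives, as did that of Egr2, from 12.71, 12.57 and 12.44 to 10.51, 10.42 and 10.25 (-2.18 ± 0.17, adjusted p = 3.29e-11). Fosb, an AP-1 subunit, fell by 2.02 ± 0.57. Junb, another subunit, moved the other way, rising by 3.47 ± 0.52 as deposited and by 1.53 after correction. Of 25 B cell receptor signalling genes 9 rose and 8 fell, 8 and 8 after correction, and 3 and 8 with the covariate. Vav3, an exchange factor below the receptor, fell by 2.28 ± 0.22, and Prkcb, the kinase that links it to NF-kB, fell by 1.89 ± 0.14 from 10.49, 10.53 and 10.47 to 8.61, 8.45 and 8.77.

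The inhibitory coreceptors and phosphatases, which dampen that signal, had 10 rises and no fall among 16 (median 1.08), all 10 of which passed again after correction, when 3 others fell. With the covariate 10 rose and 2 fell. Pirb, an immunoglobulin-like inhibitory receptor, read 7.31, 7.71 and 7.78 and then 9.76, 9.47 and 9.99, a rise of 2.14 ± 0.25 (adjusted p = 6.31e-08). Fcgr2b, the inhibitory receptor for IgG complexes, read 7.79, 7.83 and 7.88 and then 9.83, 8.62 and 11.02, higher in each day 7 library (1.99 ± 0.30, adjusted p = 4.03e-06). Cd300a rose by 2.44 ± 0.51, with day 7 replicate 2 at 4.30 against 4.04 to 4.09 at day 4. Without day 7 replicate 3 its rise was 1.54, and with only these 6 libraries in the fit the call was lost (adjusted p = 0.0863). Pirb, Fcgr2b and Cd300a are also expressed by myeloid cells, whose markers are given further on. Of 23 class switching and somatic mutation genes 13 fell and 2 rose (11 and 2 after correction, 9 and none with the covariate), with no rise without day 7 replicate 1 or in the 6-library fit. Fam72a, which tunes uracil repair during switching, fell by 1.36 ± 0.20 (0.88 after correction), and Rif1, a break-protection factor, by 1.67 ± 0.34 as deposited (0.61 after correction, with -0.40 and adjusted p = 0.274 in the covariate fit).

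Cytokine responses were read against the change to IL-6 and APRIL at day 4. Of 17 IL-6 and STAT3 response genes 9 rose and 2 fell (median 0.77), 10 rose and 3 fell after correction, and 11 and 2 with the covariate. Socs3, the feedback inhibitor that STAT3 switches on, read 6.78, 7.08 and 7.06 at day 4 and 10.07, 9.79 and 9.94 at day 7, with a rise of 2.96 ± 0.30 (adjusted p = 3.69e-09) that was 1.51 after correction. Bcl3, an NF-kB cofactor induced by STAT3, rose by 2.52 ± 0.35 (0.59 after correction). Of 18 IL-4 and STAT6 response genes 8 rose and 4 fell, against 4 and 8 after correction and 5 and 8 with the covariate. Arg1, an arginine-degrading enzyme placed on that list and typical of IL-4-treated macrophages, read 4.16, 4.16 and 5.63 and then 11.05, 5.48 and 13.81, so that day 7 replicate 2 lay within the day 4 range. Its rise of 5.46 ± 1.01 was 3.62 without day 7 replicate 3, and the call was lost with only these 6 libraries in the fit (adjusted p = 0.0726).

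Of 19 BAFF, APRIL and TNF receptor family genes 7 rose and 4 fell, 3 and 4 after correction and with the covariate, with 4 rises without day 7 replicate 3. Tnfrsf18, the costimulatory receptor GITR, rose by 2.51 ± 0.40 (0.81 with the covariate). Of 30 CD40 and NF-kB targets 10 rose and 7 fell, 7 and 9 after correction, and 8 and 12 with the covariate. Ltb, the membrane anchor of lymphotoxin, rose by 3.92 ± 0.50 (1.98 after correction), and Rel, the NF-kB subunit c-Rel, fell by 2.34 ± 0.26 from 13.57, 13.42 and 13.60 to 10.56, 11.64 and 11.36 (1.46 after correction). Of 16 BCL2 family genes tested of 17, 7 rose and 3 fell, 5 and 4 after correction, and 6 and 2 with the covariate, with 1 fall without day 4 replicate 1 or 3 and in the 6-library fit. Bbc3 and Bad, both promoters of cell death, rose by 2.43 ± 0.42 and 2.37 ± 0.42 as deposited and by 0.49 and 1.09 after correction. Interferon-stimulated genes gave 8 rises and 7 falls of 25, 5 and 6 after correction, and 5 and 5 with the covariate, with 4 falls without day 4 replicate 2. Bst2, the virion-retaining protein tetherin, rose by 2.00 ± 0.31 (0.66 after correction), and Ifit2, a sensor of foreign RNA, fell by 1.78 ± 0.23 (1.09 after correction).

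Of 23 homing and egress receptors 12 rose and 5 fell (median 0.65), 13 rose and 4 fell after correction, and 9 and 4 with the covariate. Itgb7, the integrin chain that carries cells to the gut, read 7.00, 7.37 and 7.14 and then 11.35, 10.27 and 10.76, a rise of 3.62 ± 0.30 (adjusted p = 1.24e-10) that was 2.28 after correction. Cxcr3, a receptor for chemokines of inflamed tissue, read 4.50, 4.33 and 3.90 and then 7.32, 7.16 and 7.52, a rise of 3.09 ± 0.24 (adjusted p = 2.57e-11). Both genes were separated between the days in every library. Of 28 autophagy and lysosome genes 17 rose and 3 fell, 15 and 3 after correction, 6 and 3 with the covariate, while 11 rose without day 7 replicate 3 and 10 in the 6-library fit. The list summed to 2060, 2400 and 2130 RPM at day 4 and 4130, 2730 and 5860 at day 7, with replicate 2 lowest and replicate 3 highest, the order of the myeloid markers given further on (1260, 449 and 2960 RPM). Their part in this list was not tested. Ctsd, a lysosomal protease, rose by 2.52 ± 0.42 (1.24 with the covariate), and Tfeb, the factor that drives lysosome genes, by 2.79 ± 0.44 (0.90 after correction). Of 31 proteasome genes 12 rose and 12 fell, 8 and 13 after correction, and 1 and 9 with the covariate, and 7 rose without day 4 replicate 3 or without day 7 replicate 1. Psmb10, an immunoproteasome subunit, rose by 3.25 ± 0.56 (1.98 after correction, 0.73 with the covariate), and Psmb5, a subunit of the constitutive proteasome, by 1.76 ± 0.44 as deposited with 0.28 after correction (adjusted p = 0.142).

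By the size of the rise among well-expressed genes with separate groups, the first was AC154187.2, a gene of no described function, from 3.04 in all 3 day 4 libraries to 11.45, 10.45 and 10.74 (7.84 ± 1.46, adjusted p = 5.94e-05). Its call was lost with the covariate (2.34, adjusted p = 0.115), and on recovered reads the difference was 12.48, a value that depends on how a count of 0 is treated. Igha, Jchain and Ighg2b, given above, were also among the 12. Ifitm1, an interferon-induced membrane protein, read 3.94, 4.55 and 4.31 and then 11.82, 10.16 and 10.89 (6.69 ± 0.41, adjusted p = 3.04e-13). Asb2, a substrate adaptor of ubiquitin ligases, rose by 5.44 ± 0.40 from 4.63, 5.39 and 4.94 to 10.71, 10.31 and 10.27. Sprr2a2, a cornified envelope gene of epithelia whose exons overlap those of its near-copy Sprr2a1, rose by 5.04 ± 0.22 from 5.45, 5.41 and 5.86 to 10.31, 11.34 and 10.19. All 3 changes held in 18 of 18 alternatives.

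The remaining rises of the 12 were less even. Apoc2, an apolipoprotein that activates lipoprotein lipase and overlaps Gm44805, rose by 4.62 ± 0.32 (3.03 after correction). Rpl36, a ribosomal protein, rose by 4.89 ± 0.94 from 6.34, 8.88 and 6.80 to 13.44, 11.42 and 11.84, by 2.60 after correction, and had a difference of 0.67 with the covariate (adjusted p = 0.0595). The chemokine Ccl6 read 4.23, 4.22 and 5.28 and then 10.34, 6.00 and 12.80 (5.14 ± 0.89, adjusted p = 2.34e-05). The eotaxin Ccl24 read 3.85, 3.04 and 5.05 and then 9.05, 6.33 and 10.43 (4.62 ± 0.53), with 7.20 on recovered reads. C1qb, a complement chain, read 3.45, 3.04 and 3.66 and then 9.56, 4.30 and 10.88 (4.86 ± 0.83). With only these 6 libraries in the fit the C1qb call was lost (adjusted p = 0.0551), and on recovered reads its rise was 8.07. In all 3 of these last genes day 7 replicate 2 was the lowest and replicate 3 the highest.

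The 12 largest falls all held in 18 of 18 alternatives. Zc3h12c, an RNase-domain regulator of inflammatory transcripts, read 11.58, 11.65 and 11.70 at day 4 and 6.99, 8.25 and 8.09 at day 7 (-3.87 ± 0.26, adjusted p = 1.69e-12). Lpl, lipoprotein lipase, read 13.25, 13.84 and 13.65 and then 9.80, 9.89 and 11.86 (-3.06 ± 0.46, adjusted p = 3.46e-06), with day 7 replicate 3 the highest of its group. Hdac9, a class II histone deacetylase, fell by 3.38 ± 0.21 from 9.41, 9.09 and 9.21 to 5.46, 5.79 and 6.33. Peg10, an imprinted retrotransposon-derived gene, fell by 3.74 ± 0.23. Gucy1b1, a chain of the nitric oxide receptor guanylate cyclase, fell by 3.42 ± 0.25, and Pcp4, a calmodulin regulator that overlaps Igsf5, by 3.42 ± 0.25. Lox, which cross-links collagen, fell by 3.41 ± 0.54, Ddr2, a collagen receptor kinase, by 3.26 ± 0.35 and Abi3bp, a matrix protein, by 2.99 ± 0.31. Arfgef3, Map2, a microtubule protein of neurons, and Homer2, a synaptic scaffold, fell by 3.18 ± 0.29, 3.05 ± 0.36 and 2.96 ± 0.25. Ddr2, Arfgef3, Map2 and Homer2 each overlap an antisense gene, and the strand setting of the counting is not given in the sources used here.

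Lox, Ddr2 and Abi3bp are genes of connective tissue, and the fibroblast feeder cells list fell with them: 9 of the 12 tested of 15 fell, 2 rose and the median was -1.15 (8 and 1 after correction, 9 and 1 with the covariate). Fn1, fibronectin, read 8.20, 9.38 and 9.61 and then 5.93, 6.72 and 7.09 (-2.48 ± 0.39, adjusted p = 5.93e-06). Cald1, caldesmon, fell by 2.73 ± 0.37 and Sparc by 2.16 ± 0.31. The summed list was nonetheless 202, 309 and 306 RPM at day 4 and 378, 449 and 295 at day 7, a sum that includes Thy1, which is also a T cell gene and read 11.35 to 11.45 and then 12.19 to 12.73 (1.14 as deposited, 0.10 after correction, adjusted p = 0.777). Dcn was at 0 in all 6 libraries, and Postn at 0 on day 7. The part of feeder RNA in the falls was not tested.

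Markers of myeloid cells rose with the day. Of 20, 15 rose and none fell (median 2.46), 15 after correction and 12 with the covariate, but 6 with only these 6 libraries in the fit. Their sum was 206, 328 and 324 RPM at day 4 and 1260, 449 and 2960 at day 7, so that day 7 replicate 2 lay close to day 4 and replicate 3 highest. Lyz2, lysozyme, read 4.59, 4.22 and 6.55 and then 11.10, 6.28 and 12.78, overlapping between the days (4.93 ± 1.37, adjusted p = 0.00327, lost with the covariate at an adjusted p of 0.0805). Itgam, the integrin CD11b, which activated B cells can also carry, read 4.90, 4.42 and 5.93 and then 9.14, 8.72 and 11.09 (4.57 ± 0.45, adjusted p = 2.48e-09). C1qa was at 0 in all day 4 libraries. Of 10 neutrophil and granulocyte precursor markers 8 rose and none fell, 7 after correction and 6 with the covariate, and 2 with only these 6 libraries. S100a9, a calcium-binding protein of neutrophils, read 4.72, 3.04 and 5.09 and then 9.62, 5.48 and 11.17 (4.47 ± 1.12), and Mpo, myeloperoxidase, rose by 3.73 ± 0.81. Their sum was 2.24, 0.485 and 4.52 RPM and then 116, 6.31 and 362, again with replicate 2 lowest. Retnlg was at 0 on day 4.

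Day 7 replicates 1 and 3, the libraries high in these markers, were also the ones highest in Arg1, Ccl24, Cd300a and Fcgr2b. The same order held for Ccl6 and C1qb, but both are themselves on the myeloid list. Whether cells of other types contributed to those rises was not tested. A low replicate 2 was not particular to these genes. It was also the lowest of the day 7 libraries for Sdc1, Tnfrsf17, Jchain and Ighg2b, and for the summed immunoglobulin constant regions and J chain (78300, 34900 and 73400 RPM). Erythroid cell and platelet markers gave 5 rises and 1 fall of 10, 3 and 2 after correction, 2 and none with the covariate, and 3 rises without day 7 replicate 1 or in the 6-library fit, with Pf4, a platelet chemokine also made by macrophages, at 3.61, 3.04 and 3.90 and then 9.23, 3.73 and 10.79 (4.40 ± 0.93, with a call lost in the 6-library fit at an adjusted p of 0.0878 and a difference of 6.88 on recovered reads). Dendritic cell markers gave 4 rises of 8, 5 after correction and 4 with the covariate, among them Flt3, a receptor tyrosine kinase, from 3.61, 4.10 and 4.17 to 7.31, 6.77 and 7.00 (3.07 ± 0.18, adjusted p = 1.17e-13, 5.02 on recovered reads). Clec9a was at 0 in all 6 libraries. T cell markers gave 7 rises and 1 fall of 12, 5 and 2 after correction and 5 and 1 with the covariate, but 3 rises without day 7 replicate 3 and 4 in the 6-library fit. That list shares Thy1 with the fibroblast feeder list and Cd28 with the plasma cell markers, so its counts are not independent of theirs. Cd3e, a chain of the T cell receptor complex, rose by 1.35 ± 0.37 from 3.70 to 3.79 up to 3.73 to 6.29, with 0.75 and an adjusted p of 0.0719 without day 7 replicate 3, 2.03 without replicate 2 and 2.73 on recovered reads. Natural killer and innate lymphoid markers gave 3 rises of 8, 2 after correction and with the covariate, 1 without day 4 replicate 2 or day 7 replicate 3 and 6 without day 7 replicate 2, and Eomes rose by 2.64 ± 0.27 from 5.78, 4.93 and 6.07 to 8.40, 7.81 and 8.50. Basophil and mast cell markers gave 4 rises and 1 fall of 7 tested, 4 and 1 after correction and 3 and 1 with the covariate, with 2 rises without day 4 replicate 2 or day 7 replicate 3 and 1 in the 6-library fit.

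**Figure D4:**
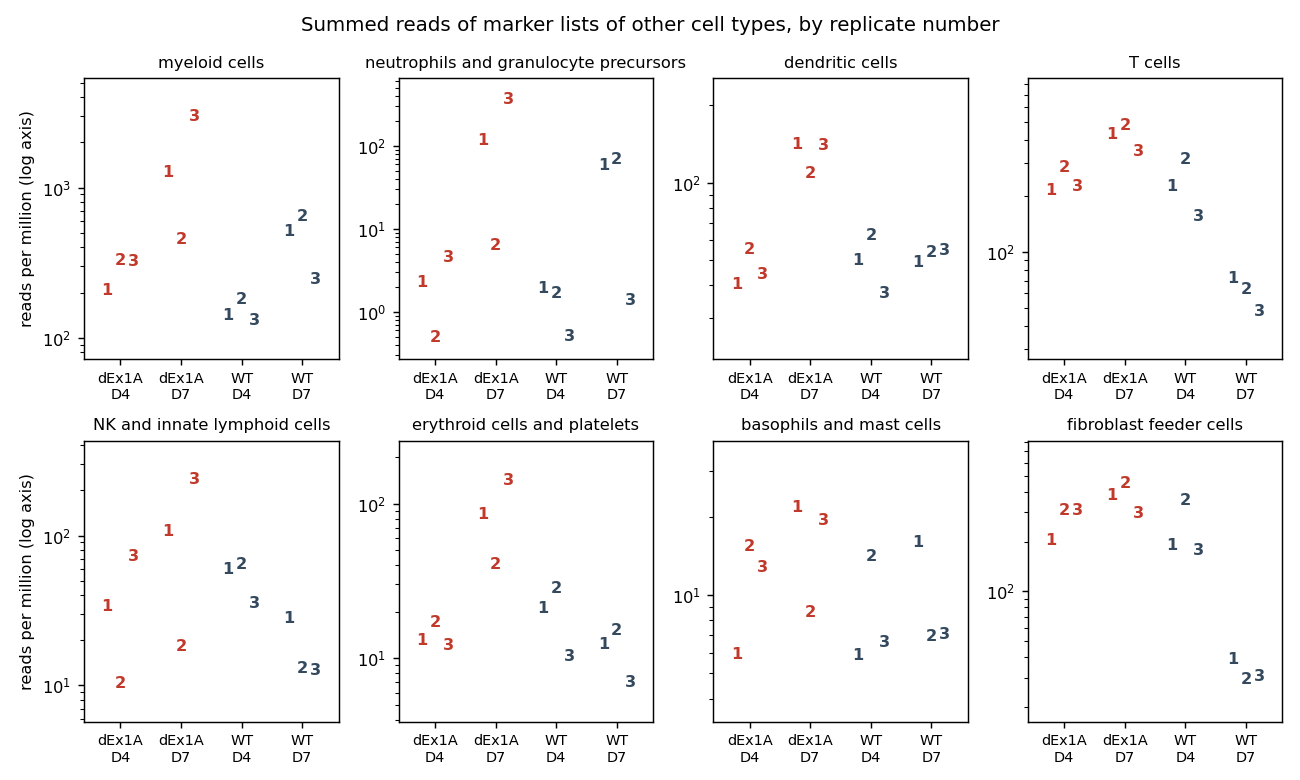
Summed RPM (log axis) of marker lists of 8 other cell types in dEx1A and wild type BCR libraries at day 4 and day 7; digits are replicate numbers. Day 7 dEx1A replicate 3 is the highest for myeloid (2960) and neutrophil markers (362), and replicate 2 is the lowest of its group for both. Thy1 is counted in both the T cell and the fibroblast feeder sums.

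With both days compared across genotypes, the change of dEx1A cells was higher for 16.4% of genes and lower for 17.5% (3335 and 3548 of 20331), against wild type BCR cells. After correction 38.0% of the calls were higher in place of 48.5%. This contrast, like those with the TLR and LPS cultures, rests on the same 6 dEx1A BCR libraries. Between the days the mean GC offset changed by 1.86 in dEx1A and 0.41 in wild type BCR libraries, so the trend enters this contrast too. Its counts of gene groups are as deposited unless a corrected count is given. Most immunoglobulin genes rose less in dEx1A cells: 10 of 13 immunoglobulin constant regions and J chain genes were lower and 1 higher (median -1.67), and 5 were lower with only the 12 libraries compared in the fit. In wild type cells the list rose from 11600, 13700 and 10200 to 165000, 217000 and 306000 RPM. Of the variable segments, 89 of 110 heavy chain and 73 of 103 light chain were lower and none higher. Ighg1 read 15.16, 15.19 and 15.03 and then 19.93, 20.51 and 21.05 in wild type cells, an interaction of -3.04 ± 0.65 (adjusted p = 0.0008) that did not pass after quantile normalization (-1.32, adjusted p = 0.142). Ighg2b had one of -3.22 ± 0.67. That of Jchain was -1.63 ± 0.58 (adjusted p = 0.0309), a call that held in only 12 of 24 alternatives. It was lost after correction (-1.08, adjusted p = 0.104) and with the covariate (-0.94, adjusted p = 0.23). Igha went the other way in its means, from 5.96 to 12.62 in wild type cells beside a rise of 7.65 in dEx1A cells. For Igkc it was -1.55 ± 0.47 (adjusted p = 0.0131), lost after quantile normalization (-0.02), with the 12-library fit, and without dEx1A day 7 replicate 2 (-1.04, adjusted p = 0.0565). Xbp1 differed by -0.84 ± 0.24 (adjusted p = 0.00859), lost with the 12-library fit (adjusted p = 0.0756) and after quantile normalization (adjusted p = 0.058).

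The repressors of plasma cell formation parted between the genotypes. Bach2 read 10.25, 10.32 and 10.16 at day 4 and 11.41, 11.49 and 11.03 at day 7 in wild type cells, against its fall in dEx1A cells, an interaction of -3.40 ± 0.22 (adjusted p = 3.39e-12). Bcl6 read 7.97, 8.16 and 7.74 and then 9.88, 10.37 and 10.14 in wild type cells and had one of -2.53 ± 0.22 (adjusted p = 1.63e-09). Both held in 24 of 24 alternatives. Mature B cell identity genes were lower in 16 of 27 and higher in 1. On the other side, 27 of 34 genes of DNA replication and nucleotide synthesis were higher and none lower (median 1.04, 28 and 1 after correction), and their sum was 1760, 1930 and 1430 RPM at day 7 in wild type cells against 4430, 5270 and 4350 in dEx1A cells. Such sums are shares of all reads. Immunoglobulin constant regions and J chain took 165000, 217000 and 306000 RPM of the wild type day 7 libraries, against 78300, 34900 and 73400 in dEx1A cells. The wild type sums of other genes are lowered by that share. Of 18 genes of the IL-4 and STAT6 response 13 were higher and 1 lower (median 2.01), and Ccl22, a chemokine of IL-4-treated cells, differed by 2.67 ± 0.34 (adjusted p = 8.91e-07).

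The largest single differences from wild type were these. Nov, a secreted matricellular protein, read 9.78, 8.65 and 9.78 and then 11.29, 12.17 and 11.72 in dEx1A cells and 10.02, 9.89 and 10.28 and then 7.00, 6.43 and 5.78 in wild type cells, an interaction of 5.98 ± 0.35 (adjusted p = 2.98e-13). Ccl17, a chemokine induced by IL-4, read 10.43, 11.34 and 10.98 and then 12.51, 12.74 and 11.85 in dEx1A cells, while wild type cells read between 5.30 and 6.03 at day 7 (5.84 ± 0.53). Sprr2a2 differed by 6.61 ± 0.31, with all 3 wild type day 7 libraries at 3.04, and by 10.42 on recovered reads. AC154187.2 also differed by 6.61, but wild type libraries scattered from 3.04 to 9.37, and the call was lost in 6 of 24 alternatives, among them those without wild type day 4 replicate 2 (4.86) or day 7 replicate 1 (5.12). Gm22133, a small RNA gene inside an exon of Ftl1 whose reads may belong to that host, differed by 5.92 ± 0.98 (3.69 after correction, 10.26 on recovered reads). In the other direction Nxpe2 differed by -5.18 ± 0.41, Ms4a4c, a membrane protein of the CD20 family, by -4.53 ± 0.47, Nuggc, a germinal centre GTPase, by -4.44 ± 0.40, and the segments Igkv7-33 and Ighv15-2 by -4.26 and -4.24. Nuggc read 3.85 to 4.70 and then 4.60 to 5.81 in dEx1A cells and between 9.99 and 10.28 at day 7 in wild type cells.

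Against the dEx1A TLR culture 8.49% of genes changed more upward (1726) and 7.31% more downward (1487). After the libraries were re-centred the upward share of the calls was 43.3% in place of 53.7%. Of 25 interferon-stimulated genes 16 were higher and none lower (median 1.40), and Ido1, an interferon-induced tryptophan-degrading enzyme, read 4.97, 4.70 and 4.69 and then 5.49, 5.57 and 5.49 in BCR cells and 9.73, 9.72 and 9.53 and then 5.73, 5.82 and 5.88 in TLR cells (4.58 ± 0.25, adjusted p = 6.18e-14). The TLR cells thus accounted for most of that difference. Nov differed by 6.12 ± 0.35, Mpzl2, an adhesion protein, by 5.06 ± 0.47, Sprr2a2 by 4.69 ± 0.31 and Il1r2, the decoy receptor of IL-1, by 4.66 ± 0.51. Igha rose more in BCR cells (3.05 ± 0.90, adjusted p = 0.0182), whereas 61 of 110 heavy chain and 49 of 103 light chain variable segments and 12 of 25 plasma cell markers rose less, Sdc1 by -1.72 ± 0.41 (adjusted p = 0.00348). Fcrla, an intracellular Fc receptor-like protein of B cells, read 8.33, 8.97 and 8.53 and then 9.29, 8.39 and 8.89 in BCR cells but went from between 4.83 and 4.95 to between 10.04 and 10.40 in TLR cells (-5.09 ± 0.24). Lpl differed by -4.99, Egr3 by -4.63, and the calcium channel genes Cacna1h and Cacna1e by -4.80 and -4.49. Cacna1h has exons that overlap Tpsg1 on the other strand. For Prdm1 the difference was 0.39 ± 0.40 (adjusted p = 0.567), and -0.06 without day 4 replicate 2.

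Against the dEx1A LPS culture 7.93% of genes changed more upward (1612) and 10.3% more downward (2089). Of 23 immediate early and AP-1 genes 19 were lower and 1 higher (median -2.08, 21 and 1 after correction). Fosb read 6.85, 5.62 and 6.08 and then 9.97, 9.51 and 10.54 in LPS cells, while it fell in BCR cells (-5.84 ± 0.81, adjusted p = 3.36e-06). Egr2 differed by -5.04 ± 0.24, Egr1 and Egr3 by -4.77 each, and Lpl by -5.40 ± 0.65. On the other side, 8 of 16 inhibitory coreceptors and phosphatases and 11 of 27 mature B cell identity genes were higher, with none and 1 lower. Cdh17, a cadherin found on the gut lining and on B cells, read 7.81, 7.51 and 8.05 and then 11.41, 12.00 and 11.83 in BCR cells and 11.69, 11.57 and 11.23 and then 7.80, 8.70 and 7.61 in LPS cells, a crossing of 7.42 ± 0.44 (adjusted p = 3.24e-13). Gpr34, a lysophospholipid receptor, differed by 6.23 ± 0.45 in the same crossing manner, and Asb2 by 6.18 ± 0.56, Ifitm1 by 5.85 ± 0.58 and Igha by 5.78 ± 0.90. Every difference named from the TLR and LPS cultures by the size rule held in 24 of 24 alternatives.

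**Figure D5:**
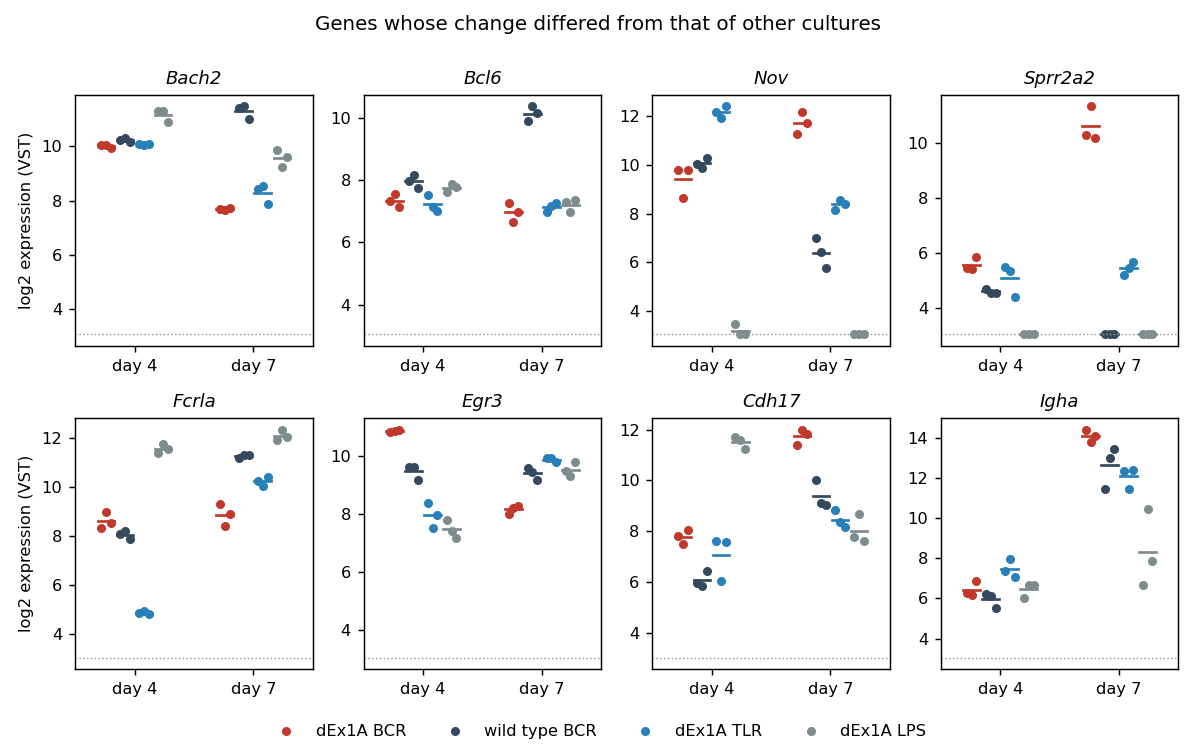
Log2 expression (VST) of 8 genes at day 4 and day 7 in dEx1A BCR, wild type BCR, dEx1A TLR and dEx1A LPS cultures; points are libraries, bars are means of 3 and the dotted line is the value of a count of 0. Cdh17 crosses between BCR and LPS cells, Bach2 climbs to between 11.03 and 11.49 in wild type cells and falls to about 7.65 to 7.73 in dEx1A BCR cells, and Sprr2a2 lies at 3.04 in wild type cells on day 7.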

How the data were processed

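Total RNA of cultured spleen B cells was sequenced as single reads of a stranded library. Per the submitters' processing notes the authors used RSEM 1.3.0, STAR 2.6.0c, DESeq2 1.22.2 in R 3.5.1, Trim Galore 0.6.0 and FastQC 0.11.8. For genome build, annotation and strand setting, what was used is unstated in the sources, though 27477 gene identifiers carried the same version as the GRCm38 annotation. The deposited values are variance-stabilised log2 expression, 28196 genes in 39 libraries of 13 groups. The transformation was inverted to relative reads, of which 94.0% to 100% (under 20 reads, tolerance 0.1) came out whole in a library, which gave depths. limma 3.58.1 in R 4.3.3 was fitted to all 39 libraries by group with a variance trend and 26 residual degrees of freedom. The 20331 genes kept lay 1 or more above the value of a count of 0 in 3 or more libraries, and p-values were adjusted over all of them. Figures used matplotlib 3.10.9. The pipeline was tested on simulated data. Alternatives were fits of the compared groups alone, a replicate block, correction for GC content and length, re-centred or quantile-normalized libraries, other filters, no variance trend, voom on recovered reads (whole or thinned to 15.1 M), and each library left out. The genes named were Prdm1, the 12 largest rises and 12 largest falls among genes with a mean of 8 or more and separate groups, the 5 largest interactions each way, the leading members of each of 42 lists, and some genes chosen after their values were seen. Members and lists were chosen with earlier results of these data known. The other 6 libraries of the series were not used here.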

Additional observations from a re-analysis of the deposited data

Results flagged for a closer look

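The change from day 4 to day 7 in dEx1A BCR cells was tested against the change in 3 other groups, and the 5 largest differences each way are listed because the difference itself passed (limma adjusted p below 0.05). All 3 tests share the same 6 dEx1A BCR libraries. Against wild type BCR cells the change was higher for AC154187.2 (6.61), Sprr2a2 (6.61), Nov (5.98), Gm22133 (5.92) and Ccl17 (5.84), and lower for Nxpe2 (-5.18), Ms4a4c (-4.53), Nuggc (-4.44), Igkv7-33 (-4.26) and Ighv15-2 (-4.24). Against dEx1A TLR cells the change was higher for Nov (6.12), Mpzl2 (5.06), Sprr2a2 (4.69), Il1r2 (4.66) and Ido1 (4.58), and lower for Fcrla (-5.09), Lpl (-4.99), Cacna1h (-4.80), Egr3 (-4.63) and Cacna1e (-4.49). Against dEx1A LPS cells the change was higher for Cdh17 (7.42), Gpr34 (6.23), Asb2 (6.18), Ifitm1 (5.85) and Igha (5.78), and lower for Fosb (-5.84), Lpl (-5.40), Egr2 (-5.04), Egr1 (-4.77) and Egr3 (-4.77). The AC154187.2 difference was not called in 6 of 24 alternatives, and for Gm22133 the reads may belong to Ftl1.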

How the results depend on the processing

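Of 177 gene results with 3435 values, no call changed side under the replicate block, whose counts were 11057 for the day comparison as against 10963, 6926 for genotype, 3291 for TLR and 3875 for LPS. Same-numbered libraries of the 2 days correlated at -0.21, -0.37 and 0.55 as deposited and at -0.01, -0.05 and 0.41 after correction. Whether equal numbers share an animal is not known from these values. The covariate left 5659 genes for the day comparison. With only the compared groups in the fit, the day comparison had 8144, genotype 3801 and TLR 1745. The TLR comparison had 4933 with the replicate block and correction and 5243 with the covariate, and LPS had 5683 with the block and correction. Leaving out 1 library gave 9025 to 10901 genes for the day, 4857 to 7888 for genotype, 2502 to 3782 for TLR and 2762 to 4109 for LPS. With the covariate the sign turned for H2-Oa (-0.71), Cd74 (-0.50), Dad1 (-0.29), Atp5d (-0.26), Pold1 (-0.17), Psmb5 (-0.17), Ppan (-0.09) and Mki67 (0.13). Correction, with or without the block, turned Mki67 (0.06) and Hist1h2bj (-1.22). Hspa5 was -0.0039 after quantile normalization and -0.06 to 0.19 with 1 library left out, Ero1lb -0.02 to 0.27, and the Prdm1 difference from TLR -0.06 to 0.71. The cause was not tested. Depth limits genes near a count of 0, whose differences are understated.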
